A study of Mus musculus with 3 samples.

Results

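The promoters described here were the captured promoters that sat among the greatest number of other captured promoters in mouse erythroid cells. A promoter was taken when at least 12 other fragments of the capture list had their midpoints within 250 kb of its own midpoint on the same autosome, and when at least 1000 cis ligation events (junctions between the promoter and another fragment of its own chromosome) could be counted for it. Of the 7197 listed promoter fragments, 542 met the first condition. Of these, 483 also met the second, since 55 had too few events and 4 carried a name shared with another fragment. They fell into 52 regions on 16 chromosomes and had 12 to 25 neighbours, with a median of 14. The threshold cut through a continuous range. At exactly 12 neighbours there were 108 members, such as 9430065F17Rik_Zfp748, Aarsd1 and Abhd8, with a median of 42.5% ± 3.03 (SD, n = 2) of their events within 250 kb. At 11 neighbours there were 155 promoters, such as 2810428I15Rik, 9130019O22Rik and AI467606, with a median of 42.3% ± 3.34 (SD, n = 2).

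The study captured promoters, most of them active with some inactive control promoters that were not told apart here, from 3C libraries, in which crosslinked chromatin is cut by DpnII, which recognises GATC, and religated so that fragments that lay close together are joined. The method, NuTi Capture-C, purifies nuclei after ligation and pulls down the chosen fragments with titrated biotinylated oligonucleotides. There was 1 group of 3 libraries and no control group, all from ter119+ (red cell lineage) cells of F1 hybrid C57BL/6-cross-CBA/J mice. The mice had been made anaemic with 3 doses of phenylhydrazine, 12 h apart, and were killed on day 5, when the spleen is largely CD71+ ter119+ erythroid tissue. Age and sex, and whether the libraries came from separate mice, were not given, so that errors here measure the spread between libraries, which may be technical. Contact counts hold no marker that could check the cell type. The value columns carried no sample names and are called libraries a, b and c. They held 18230099, 34428035 and 34233560 cis events. The members had a median of 6392 events each over the 3 libraries, against 6835.5 for the 6034 other autosomal promoters with at least 1000 events. Over the distance ranges of the members, libraries b and c differed by about sampling noise (chi-square per degree of freedom 1.06), whereas library a differed from b and c by 4.53 and 4.37. The study describes its libraries as independent. Because of their agreement over the distance ranges, libraries b and c were nevertheless counted as 1 sample here for means and SDs. Each mean ± SD below is over library a and the mean of b and c (n = 2). Such an SD can be smaller than the difference between b and c. The tests of calls below instead used the events of the 3 libraries summed, and counts of libraries take b and c separately.

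Genes are unevenly spread along mammalian chromosomes, and gene-dense, G+C-rich stretches hold many housekeeping promoters together with a few clusters of related genes. The best known such clusters are those of the replication-dependent histone genes, whose promoters fire together when DNA is copied, and the major histocompatibility complex. Gene-dense active stretches tend to occupy the interior of the nucleus, and contacts between promoters at short distance are dominated by how far apart they lie along the DNA. Replication-dependent histone genes gave 32 of the 483 members (6.63%, against 0.182% of the other promoters), and 26 members belonged to the major histocompatibility complex. Smaller numbers came from the cytoplasmic ribosomal proteins (9, such as Rplp2 and Rpl41), the mitochondrial ribosomal proteins (8), RNA polymerase and Mediator subunits (7, such as Polr2a) and erythroid genes (9), while 336 belonged neither to these nor to the other groups counted (zinc finger, solute carrier, ubiquitin conjugation, respiratory chain, proteasome and chaperone, splicing and uncharacterised genes).

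The histone promoters gave all called promoter pairs and most called fragments described below, and the stretches of 120 bases before the annotated starts of 7 genes in the called pairs are shown for that reason. Capitals mark the word CCAAT, the word TATAAA and the octamer word ATTTGCAT where they occur on either strand. Each is read 5′ to 3′ on the strand of the gene (mm9).
Hist1h3h, chr13:21809377-21809496, + strand: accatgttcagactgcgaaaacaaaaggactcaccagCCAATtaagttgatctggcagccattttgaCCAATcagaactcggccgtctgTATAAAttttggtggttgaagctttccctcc
Hist1h1b, chr13:21872495-21872614, − strand: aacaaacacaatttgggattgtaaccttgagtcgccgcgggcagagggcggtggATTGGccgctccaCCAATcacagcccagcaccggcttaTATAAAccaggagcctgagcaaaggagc
Hist1h2ab, chr13:23842837-23842956, + strand: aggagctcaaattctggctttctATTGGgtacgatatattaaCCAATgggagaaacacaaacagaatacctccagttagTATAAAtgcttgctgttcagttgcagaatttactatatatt
Hist1h2bn, chr13:21845872-21845991, + strand: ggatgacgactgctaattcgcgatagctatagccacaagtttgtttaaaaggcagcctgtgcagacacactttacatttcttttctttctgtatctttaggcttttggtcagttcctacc
Hist1h4f, chr13:23643518-23643637, − strand: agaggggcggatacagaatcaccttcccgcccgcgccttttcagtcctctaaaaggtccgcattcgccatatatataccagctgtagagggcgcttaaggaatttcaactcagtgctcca
Hist1h4n, chr13:21924066-21924185, − strand: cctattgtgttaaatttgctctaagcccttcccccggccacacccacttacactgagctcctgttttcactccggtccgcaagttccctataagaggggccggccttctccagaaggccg
Hist1h4i, chr13:22133222-22133341, − strand: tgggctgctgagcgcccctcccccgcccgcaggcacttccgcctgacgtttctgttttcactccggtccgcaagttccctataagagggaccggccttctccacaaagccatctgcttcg
The stretches of Hist1h3h, Hist1h1b and Hist1h2ab each held a pair of CCAAT words and a TATAAA word. Those of Hist1h2bn and of the 3 H4 genes held none of the words in this window. In RefSeq promoter sequences of assembly GRCm38.p6, from 250 bases before to 50 bases after the start, CCAAT occurred on either strand in 81.6% of 38 matched histone genes, 43.1% of the matched members without histone genes, 41.4% of 5554 other captured genes and 37.9% of all 27025 promoters. TATAAA occurred in 63.2%, 7.46%, 5.73% and 14.2% of these, and ATTTGCAT, known from histone H2B promoters, in 15.8%, 1.40%, 1.24% and 1.75%. In all, 467 of 552 member gene names were matched to a RefSeq promoter.

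The region of Klf1 on chromosome 8 held the largest number of erythroid members, and 3 of its promoter stretches are shown for comparison with the histone promoters, that of Calr because it received the most contacts there. Here capitals mark the word CCAAT, the word GATAA that is the core of sites for GATA factors, and the word CACCC that is the core of sites for Klf1, on either strand.
Calr, chr8:87370834-87370953, − strand: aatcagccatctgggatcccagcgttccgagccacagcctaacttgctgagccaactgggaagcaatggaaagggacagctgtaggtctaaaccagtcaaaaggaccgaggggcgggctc
Klf1, chr8:87425707-87425826, + strand: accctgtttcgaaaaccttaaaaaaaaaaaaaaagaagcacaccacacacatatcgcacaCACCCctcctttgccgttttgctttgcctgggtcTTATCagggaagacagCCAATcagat
Dnase2a, chr8:87432339-87432458, + strand: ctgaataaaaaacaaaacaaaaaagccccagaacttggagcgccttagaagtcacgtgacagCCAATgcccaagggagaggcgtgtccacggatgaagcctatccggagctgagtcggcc
The Klf1 stretch held 1 word of each kind, the Dnase2a stretch a CCAAT word and the Calr stretch none. Over RefSeq promoters GATAA was as frequent in members (15.0%) as in the other captured genes (14.9%), and CACCC stood at 57.0% and 59.7%.

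The fragments of the members were like those of other promoters, whereas their surroundings were not. Their median length was 680 bases against 757, and their G+C content 58.6% against 59.1%, with 5.92 against 6.50 CpG dinucleotides per 100 bases. The 500 kb around a member held a median of 29 protein-coding genes, against 9 around other promoters and 4 around promoters with no captured neighbour. The G+C content of the same window was 48.6%, 45.0% and 42.4%. It was cut into 1261 DpnII fragments against 1227. By the choice of the members, more of these were themselves targets, at a median of 15 (1.21%) against 4 (0.340%). The authors' table gives no contact at targeted fragments, so contacts between promoters were read at the untargeted fragments beside them.

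Members kept more of their contacts close by. A median of 48.0%, 43.1% and 42.9% of their cis events in libraries a, b and c lay within 250 kb, against 34.3%, 30.4% and 30.6% for the other promoters. The difference was 13.1 percentage points ± 0.845 (SD, n = 2), above 0 in 3 of 3 libraries. An exact sign-flip permutation test gave a two-sided p = 0.5 for 2 samples, and p = 0.25 when the libraries were taken as 3 samples, the smallest p that either number allows. The share rose with the number of neighbours in each library, from 23.9% ± 1.93 with 0 neighbours (648 promoters) to 31.3% ± 2.60 with 1 to 5 (3817) and 38.03% ± 3.05 with 6 to 11 (1569), to 45.5% ± 3.53 for the members (n = 2 throughout). Library a was the highest in every class, by more than libraries b and c differed from each other.

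**Figure D1:**
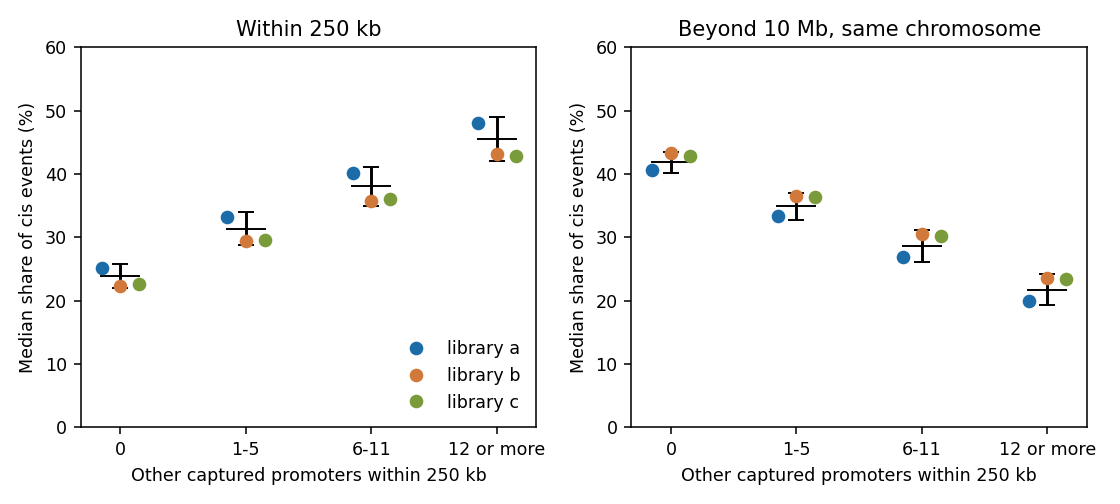
Median share of the cis events of a promoter, in percent, that lay within 250 kb (left) and beyond 10 Mb on the same chromosome (right), by the number of other captured promoters within 250 kb. Points are the 3 libraries and the bars the mean ± SD of library a and the mean of b and c. The share within 250 kb rises from 23.9% to 45.5% with crowding while that beyond 10 Mb falls from 41.8% to 21.7%.

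The shares of a promoter add up to its whole, so that a higher share nearby goes with a lower one elsewhere. For the members it was lower from 1 to 10 Mb, at 17.5% ± 0.758 against 21.4% ± 0.663, a difference of −3.88 percentage points ± 0.0952, and lower still beyond that. Beyond 10 Mb lay a median of 20.0%, 23.6% and 23.4% of their cis events in the 3 libraries, against 32.2%, 35.4% and 35.3% for other promoters, a difference of −12.0 percentage points ± 0.241. From 10 to 100 kb members had 22.9% ± 1.72 against 16.1% ± 1.29, and from 100 to 250 kb 12.6% ± 0.470 against 7.85% ± 0.398. The gap was narrower from 250 to 1000 kb, at 14.2% ± 0.121 against 11.3% ± 0.176. It was narrower still nearest the promoter, at 7.475% ± 0.93 against 6.14% ± 0.76 from 2.5 to 10 kb. Under 2.5 kb it was the narrowest, at 1.75% ± 0.213 against 1.445% ± 0.168. The higher share within 250 kb was found on 16 of 16 chromosomes in all 3 libraries, from 4.54 points on chromosome 3 (13 members) to 20.1 points on chromosome 4 (4 members). Among single members the share ran from 25.9% to 64.4%. There were 464 members (96.1%) above the median of the other promoters, and 434 other promoters (7.19%) above the median of the members. Fitted from 10 kb to 1 Mb, the slope of log10 events per fragment on log10 distance was slightly steeper for members in each library. It was −0.942 ± 0.027 for members, −0.913 ± 0.022 for others and −1.07 ± 0.034 for the 32 histone members. This slope describes the range as a whole, since members and others differed in both directions within it. From 10 to 100 kb the fall was shallower for members than for others in each library. From 100 kb to 1 Mb it was steeper for members in each library. Members leaned little to one side. The median share of their events from 2.5 to 250 kb that fell on the fuller side was 55.5%, 55.0% and 55.1% in the 3 libraries, and 5 members (1.04%) had at least 75% there, against 109 other promoters (1.81%).

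The extremes of this range lay in several regions. Ehbp1l1, in the largest region on chromosome 19, had 66.7%, 62.0% and 62.2% of its events within 250 kb in the 3 libraries (64.4% ± 3.23). Vps51 of the same region, a subunit of a vesicle-tethering complex, had 63.3% ± 4.72. The histone promoter Hist1h2bq_Hist1h2ap_Hist1h2ao had 65.7%, 61.7% and 61.5% (63.6% ± 2.88). The means of these 3 differed by less than their SD, which holds the offset of library a. Within each library Ehbp1l1 was the highest of them, at 66.7% against 66.6% for Vps51 in library a. At the other end stood Efna1, an ephrin ligand on chromosome 3, with 27.9%, 24.1% and 23.8% (25.9% ± 2.84), Hist1h3a with 28.5% ± 1.10, and Scrt1, a neuronal repressor, with 28.6% ± 3.74. Hist1h3a is the last captured promoter of its cluster. These promoters differed in depth, where the median member had 6392 events. Ehbp1l1 had 2736 events, Vps51 2000 and the Hist1h2bq promoter 25386, against 74684 for Efna1, 11593 for Hist1h3a and 56410 for Scrt1. In the same order their fragments had 230, 372, 397, 196, 2506 and 2512 bases, where the median was 680. The part of depth and fragment length in these shares was not tested. Of the promoters with the most neighbours (25), Hist1h1d had 58.1% ± 0.546, Hist1h2af_Hist1h3g 60.2% ± 1.14 and Hist1h2ad_Hist1h2bf 49.8% ± 2.85.

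Gene groups differed in level but not in the direction of this difference. The histone members had a median share within 250 kb of 47.0% ± 2.42, against 40.3% ± 3.81 for the histone promoters in less crowded places. The members of the major histocompatibility complex had 42.3% ± 2.62 against 30.5% ± 2.92 for the rest of that group, the 12 zinc finger genes 38.2% ± 3.04 against 29.7% ± 2.12, and the 9 cytoplasmic ribosomal protein genes 46.9% ± 3.58 against 32.1% ± 2.25. The 7 members encoding RNA polymerase and Mediator subunits stood at 54.0% ± 3.83 against 31.3% ± 2.48, and the 9 erythroid members at 52.2% ± 3.87 against 42.0% ± 1.89. The 336 members in none of the groups counted had 45.6% ± 3.53, close to the value over all members. These are descriptions of groups of 7 to 32 promoters, with no test between groups.

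The 6 largest regions held 153 of the 483 members. The region from Sf3b2, a splicing factor subunit, to the kinase gene Cdc42bpg on chromosome 19 held 33 members over 1011.5 kb, and Arl2 had its most neighbours (19). The region from the splicing regulator Ptbp1 to Oaz1ps_Oaz1, the antizyme of polyamine synthesis, on chromosome 10 held 31 over 972.7 kb, around Midn. The region from Pgp to the lysosomal chloride exchanger Clcn7 on chromosome 17 held 23, around the ribosomal protein gene Rps2. The large histone cluster from Zfp322a to Hist1h3a on chromosome 13 also held 23, of which 20 were histone promoters, in 396 kb. The region from Slc3a2, the heavy chain of amino acid transporters, to the elongation factor gene Eef1g on chromosome 19 held 22, and that from Rbms2 to Pym1_b on chromosome 10 held 21. A small histone cluster on chromosome 13, from Hist1h2ai_Hist1h2bl to Zfp184, held 13 members, 12 of them histone promoters.

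Whether contacts of crowded promoters stayed in the crowded stretch was asked by comparing observed with expected events at 10 to 250 kb inside and outside the span of a region. The expected count is the total of the promoter multiplied by the share of events that all promoters have at that distance. Over all members the ratio of observed to expected was 1.164 ± 0.0003 times higher inside than outside. The histone promoters had a ratio of 2.27, 2.06 and 2.06 in the 3 libraries (2.16 ± 0.147), and without them the value was 1.12 ± 0.001. Regions went in different directions. Of the 48 regions with a ratio, 25 were above 1 in all 3 libraries and 15 were below 1 in all 3, around a median of 1.06. The large histone cluster was the highest at 2.93, 2.57 and 2.62 (2.76 ± 0.235). It was followed by the Slc3a2 to Eef1g region at 2.15, 2.03 and 2.05 (2.09 ± 0.077), by the region from Dhrs4 to Dhrs1_Nop9 on chromosome 14 at 2.06 ± 0.108 and by the small histone cluster at 1.95, 1.76 and 1.78 (1.86 ± 0.127). The other large regions were lower. The Sf3b2 region had 1.24 ± 0.013, the Pgp region 1.07 ± 0.004, the Rbms2 region 1.01 ± 0.015 and the Ptbp1 region 0.985 ± 0.002. The lowest ratio belonged to the 3 members from Slc5a6_Atraid to Mpv17 on chromosome 5, at 0.642, 0.656 and 0.610 (0.638 ± 0.006). The region of Gpx1 and Apeh, from Rnf123 to Qrich1 on chromosome 9, was at 0.724 ± 0.036.

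**Figure D2:**
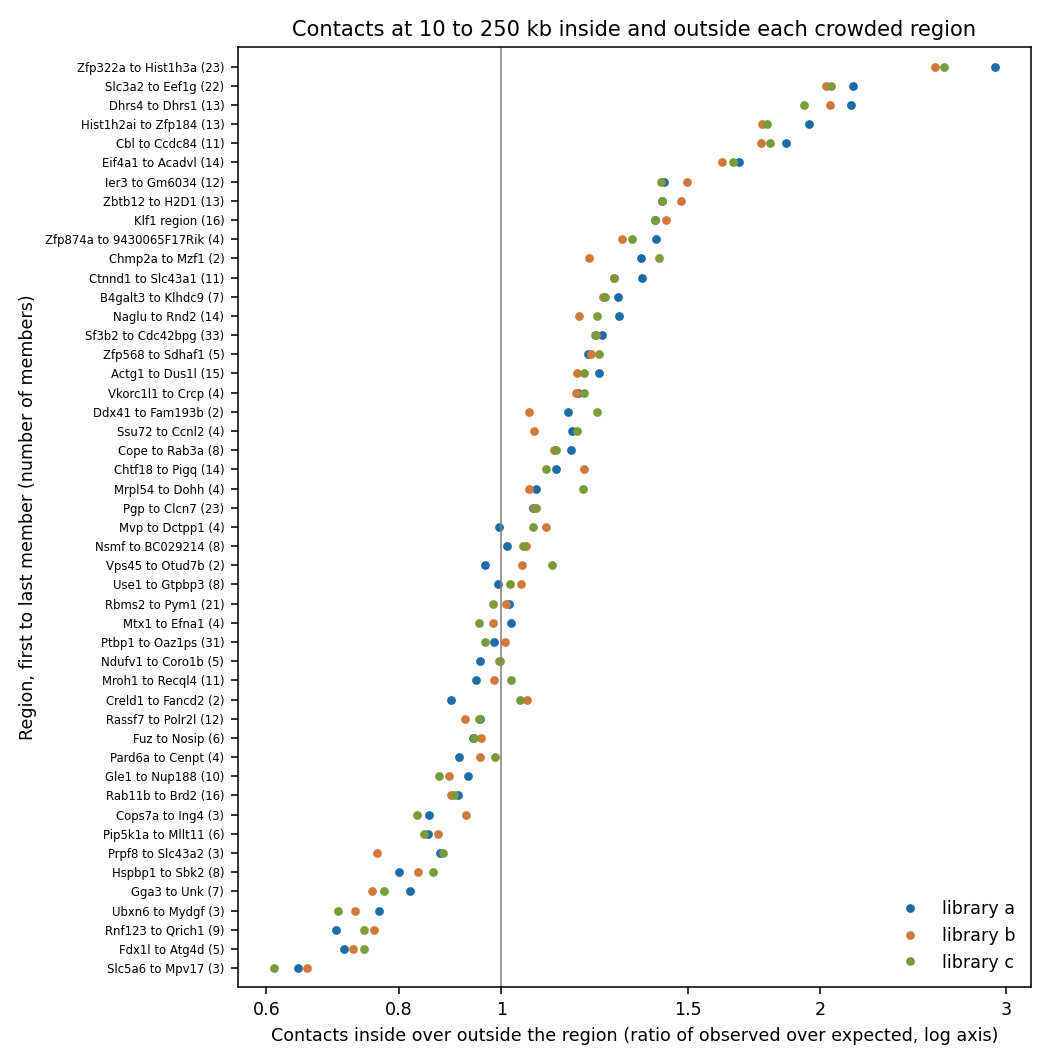
Observed over expected events at 10 to 250 kb inside each crowded region divided by the same outside it, on a log axis, for the 48 regions with a ratio. Each row is a region named by its first and last member, or by Klf1, with the number of members, and points are the 3 libraries. The large histone cluster has the highest ratio (2.76) and the Slc5a6_Atraid region the lowest (0.638), and in most rows the 3 libraries lie close together.

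Contacts between captured promoters were then read at the untargeted fragments 1 or 2 places from each partner. In all, 15388 pairs with a member as the viewpoint, the promoter from which contacts are counted, were tested among 89447 pairs, with a negative binomial test, and q is its p-value after Benjamini-Hochberg adjustment over all pairs. Among the member pairs, 6 (0.039%) were called, with q under 0.05 and more events than expected in each library, against 0.0179% of all pairs tested. All 6 began at histone promoters. Hist1h3h contacted the flank of Hist1h4i, 323.7 kb away, with 11, 15 and 19 events in the 3 libraries, where 2.32 were expected in all (q = 0.00864). This was 19.5, 17.6 and 21.1 times expected in libraries a, b and c (19.4-fold ± 0.0655), so that b and c differed by more than the SD. The same promoter contacted the flank of Hist1h2bq_Hist1h2ap_Hist1h2ao, 115.8 kb away, with 14, 11 and 22 events (16.8-fold ± 2.76, q = 0.0015). Both H3-to-partner contacts were above expectation by at least 10-fold in each library. Hist1h2ab contacted Hist1h4f, 199.1 kb away, with 5, 9 and 4 events (14.2-fold ± 1.76, q = 0.0442), and in the opposite direction the value was 3.97 (q = 0.536). Hist1h1b contacted Hist1h4n at 6.80-fold ± 3.53 (q = 0.0264), and in the opposite direction the value was 2.97 (q = 0.453). The linker histone promoter Hist1h1b and Hist1h2ak_Hist1h2bn, 26.4 kb apart, were called in each direction, at 6.51-fold ± 0.204 and 4.35-fold ± 0.798 (q = 0.0015 and q = 0.04). Of these partners Hist1h4i is not a member. All events of Hist1h3h at Hist1h2bq_Hist1h2ap_Hist1h2ao and of Hist1h1b at Hist1h4n lay on fragments with at least 50% of their 30-base words elsewhere in the genome, and no event of the other 4 pairs did. The calls rest on few events. No pair was called without library c, and 4 were called without library a or without library b.

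Over all pairs between histone members of 1 cluster, contacts were raised broadly and not at a few pairs only. The 328 such pairs had 9547 events, 2.17, 2.23 and 2.17 times the expected number in the 3 libraries (2.18 ± 0.0226). Of them, 244 (74.4%) were above expectation in all 3 libraries and 187 (57.0%) had an unadjusted p under 0.05, where the shares over all pairs tested were 19.3% and 8.28%. Without the fragments that had at least 50% of their 30-base words elsewhere, a choice made after the data were seen, 318 pairs were left at 2.19 ± 0.0392. All 89447 pairs tested stood at 1.35 ± 0.0119. They reach to 1 Mb, and for promoters that are not members the flank value rose with distance, from 0.919 ± 0.0206 at 2.5 to 10 kb to 1.22 ± 0.00833 at 10 to 50 kb, 1.499 ± 0.00321 at 50 to 250 kb and 1.755 ± 0.00353 beyond, so that this value is no match in distance for pairs of 1 region. Pairs within all crowded regions were at 1.11 ± 0.0228 over 6528 pairs, of which 434 (6.65%) had an unadjusted p under 0.05. The histone classes were described side by side, with no test between them. Contacts read here came from those members of a cluster whose pair with the promoter was tested, also members that are not histone genes. At the flanks of the 10 H4 promoters they were 2.77, 2.98 and 2.85 times expected (2.84 ± 0.0975), with single promoters from 2.24 at Hist1h4b to 3.77 at Hist1h4n. At the 4 H1 promoters they were 2.44 ± 0.036, with Hist1h1c_b at 3.91, 3.15 and 3.06. At the 16 promoters of H2A, H2B or H3 genes they were 1.69, 1.73 and 1.74 (1.72 ± 0.0306), with single promoters from 1.19 ± 0.212 at Hist1h2af_Hist1h3g to 8.40 ± 1.16 at Hist1h2bq_Hist1h2ap_Hist1h2ao, which was above every H4 promoter with 84 events. All fragments read at that promoter, at Hist1h4n and at Hist1h4m (3.55 ± 0.0464) were copied elsewhere in the genome to at least 50% of their 30-base words, so that the highest values of both classes lay on copied sequence. None was at Hist1h4c_a (3.29 ± 0.373). The ranges of the classes thus overlapped. Hist1h2bq_Hist1h2ap_Hist1h2ao, Hist1h4n and Hist1h4m were read only from Hist1h3h, Hist1h1b, Hist1h3i and Zfp184. Of the 84 events at the first of these promoters, 47 came from Hist1h3h, in a pair called above. Summed over both clusters, the 3 classes kept this order in each library, but in the small cluster the H1 promoter (2.81 ± 0.105) and the 4 H4 promoters (2.81 ± 0.303) did not differ beyond their spread. Pairs of promoters that share sequence had been left out, among them the pairs between H4 promoters of the small cluster. Pairs within the class of H2A, H2B or H3 genes were in part kept, such as that of Hist1h3h and Hist1h2bm. The classes were thus read from different viewpoints. The non-histone members of the large cluster, read in the same way, were at 2.12 ± 0.454 for Abt1, 1.495 ± 0.217 for Zfp322a and 1.28 ± 0.152 for Btn1a1.

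Within the large cluster the highest values lay between its outer groups of histone promoters. When the 20 histone promoters were divided at gaps of over 30 kb, a grouping made once the matrix of pairs had been seen, 9 promoters from Hist1h4h to Hist1h4d formed the first group and 8 from Hist1h1c_b to Hist1h3a the last. From the first to the last group, 158 to 232.4 kb away, 40 pairs had 185, 267 and 258 events, 5.55, 4.52 and 4.37 times expected (5.00 ± 0.778), and 39 of the 40 pairs were above 1. In the opposite direction 52 pairs had 155, 301 and 244 events, 5.89, 5.81 and 4.92 times expected (5.63 ± 0.374), and 51 were above 1. Inside the groups, at 2.92 to 47.1 kb and at 2.11 to 22.2 kb, the values were 1.69 ± 0.00549 and 1.67 ± 0.0158. In all 3 libraries the values between the groups were the higher ones, but the pairs differ in distance. Flank values of histone members in general rose with distance up to 250 kb (1.42 ± 0.0349 at 2.5 to 10 kb, 2.02 ± 0.0276 at 10 to 50 kb, 3.15 ± 0.095 at 50 to 250 kb). They were at 2.78 ± 0.00399 from 250 to 1000 kb. The difference at equal distance was not tested. Without the copied fragments the values were 5.03 ± 0.777 and 5.98 ± 0.433 between the groups and 1.69 ± 0.0211 and 1.69 ± 0.00867 inside them.

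**Figure D3:**
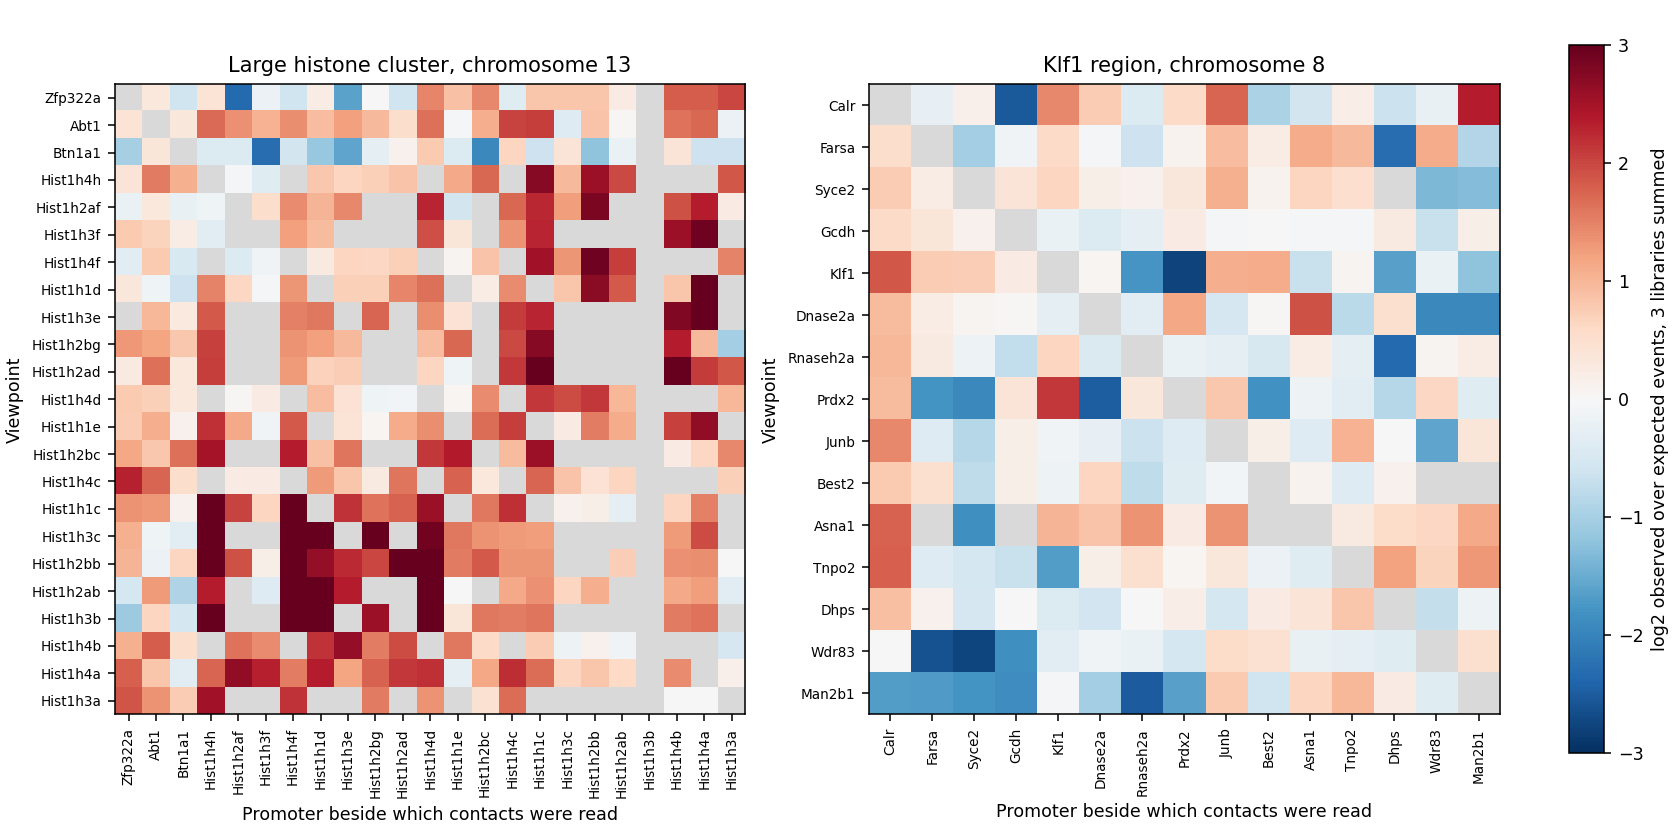
Observed over expected events, as log2 over the 3 libraries summed, from each viewpoint (rows) at the flanks of each other promoter (columns) in the large histone cluster (left) and in the promoters shown for the Klf1 region (right), in chromosomal order. Grey squares were not tested because of shared sequence, distance under 2.5 kb or no free flank, and values beyond 3 in size are drawn at 3 and pairs without events as 0.5 events. Histone pairs are raised (2.18 over the pairs of both clusters), most of all between the promoters from Hist1h4h to Hist1h4d and those from Hist1h1c_b to Hist1h3a, whereas pairs of the Klf1 region are at 1.10 with a raised column at Calr.

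The Klf1 region of chromosome 8, which ends at Man2b1, held 16 members in 243 kb, 4 of them erythroid genes. At 10 to 250 kb their observed over expected contacts were higher inside the region than outside it (ratios of 1.40, 1.43 and 1.40, mean 1.41 ± 0.012). The 234 pairs had 1.10 ± 0.0415 times the expected events, 41 (17.5%) were above expectation in each library, and 9 (3.85%) had an unadjusted p under 0.05, shares below those over all pairs. Calr, which encodes the endoplasmic reticulum chaperone calreticulin, received the most. Its flanks had 91, 124 and 138 events from 15 viewpoints, 1.56, 1.58 and 1.74 times expected (1.61 ± 0.0718), and 13 of the 15 viewpoints were above 1. Klf1, the erythroid Krüppel-like factor, received 73, 95 and 82 events (1.24 ± 0.110), with 7 of 15 viewpoints above 1. Dnase2a, a lysosomal nuclease, was at 1.03 ± 0.0142 and Prdx2, an abundant red cell peroxidase, at 0.986 ± 0.0588. From Klf1 itself 388, 893 and 896 events were counted and 55.1% ± 3.37 lay within 250 kb. From Calr there were 1333 events in all, of which 62.6% ± 2.71 lay within 250 kb. Outside this region the erythroid members described here were Ppox of heme synthesis, Ube2l6, Gpx1 and Hagh_Fahd1. None of their pairs was called. The highest partner of Ube2l6 was Ypel4 (4.22-fold ± 0.511, q = 0.517, 2.32 in the opposite direction), that of Hagh_Fahd1 was Nubp2 (2.75-fold ± 0.832, q = 0.566) and that of Gpx1 was Rhoa (2.17-fold ± 0.193, q = 0.5995).

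Set against their own surroundings, flanks of captured promoters were not raised for members as a whole. Observed over expected at fragments 1 or 2 places from other promoters, divided by that at fragments 6 to 15 places away, was 0.927, 0.935 and 0.937 in the 3 libraries (0.932 ± 0.006), against 0.986 ± 0.001 for other promoters. From 2.5 to 10 kb the order was the opposite in each library, at 0.911, 0.941 and 0.933 (0.924 ± 0.0184) for members and 0.843, 0.858 and 0.858 (0.851 ± 0.0105) for others. For the histone members it was 1.22, 1.23 and 1.22 (1.22 ± 0.008), and 1.49 ± 0.0619 from 50 to 250 kb. For members without the histone genes it was 0.903 ± 0.004. Within 1 place the value over all members was 0.746, and within 3 places 0.9995, so that the level depended on how the flank was drawn.

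Single fragments from 2.5 kb to 1 Mb were called by the same test over 28278988 pairs of viewpoint and fragment, of which 542 (0.00192%) passed. Among the 2157480 pairs of members, 45 (0.00209%) passed, from 24 members. Of the 45, 27 came from 12 histone members and 11 from 5 members of the major histocompatibility complex. By place, with a fragment counted once for each viewpoint that called it, 19 lay between genes, 9 in introns, 11 in coding exons and 6 in other exons. The median distance was 100.1 kb. The highest was Haghl_a on chromosome 17, the gene of a hydrolase related to Hagh, which contacted a coding exon of Hagh at chr17:24989228-24989793, 932.7 kb away, with 18, 34 and 38 events where 0.174 were expected (496-fold ± 56.2, q = 9.43e-57). The longest run of bases shared by the 2 fragments was 17. H2D1_H2L contacted an exon of H2-Q10, another class I gene, with 5, 11 and 7 events (103-fold ± 5.59). Babam1 contacted an intron of the elongation factor gene Ell, 823.5 kb away, with 9, 12 and 12 events (53.8-fold ± 3.99), and Zfp87, Tnpo2_a, Zfp566 and H2T24 reached 50.3-fold ± 22.001, 41.8-fold ± 7.22, 35.8-fold ± 4.81 and 25.6-fold ± 12.1, each from 8 to 11 events. Hist1h3h gave 9 of the 45 calls, with the highest at an exon of Hist1h2ag (chr13:22133705-22134376, 31.2-fold ± 4.10, 19 events). Hist1h1b contacted a coding exon of Hist1h2bq at 28.9-fold ± 6.73 with 36 events. Copies elsewhere in the genome bear on these calls. Of the fragments of the 45 calls, 18 had at least 50% of their 30-base words in another place of the genome, 19 shared a word with some captured promoter and 7 had no copied word. All 18 were calls of histone members or of members of the major histocompatibility complex. The fragments named above at Hist1h2bq (100%) and for H2T24 (59.9%) were among them. So were all calls of Hist1h3h except that at Hist1h2ag, whose fragment held no copied word. The part that copied sequence had in the calls was not tested. Leaving out library a or library b left 26 calls each, and leaving out library c left 19.

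Among the 7 fragments without a copied word, the first 100 bases of 3 between genes of the large histone cluster are shown, because none of their 30-base words occurs elsewhere. Copies that have diverged by single bases are not covered by this. Capitals mark DpnII sites, and the counts do not say at which end of a fragment the junction lay.
Contacted by Hist1h4f, chr13:23840319-23840418, + strand: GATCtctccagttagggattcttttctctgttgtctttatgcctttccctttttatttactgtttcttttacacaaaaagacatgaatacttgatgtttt
Contacted by Hist1h2ad_Hist1h2bf, chr13:23845581-23845680, + strand: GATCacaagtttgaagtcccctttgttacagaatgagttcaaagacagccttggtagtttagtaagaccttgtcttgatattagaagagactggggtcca
Contacted by Abt1, chr13:23616087-23616186, + strand: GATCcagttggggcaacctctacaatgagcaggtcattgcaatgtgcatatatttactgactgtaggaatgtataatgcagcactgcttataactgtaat
The first lies 1.003 kb from Hist1h2ab and had 8, 8 and 15 events from Hist1h4f (16.1-fold ± 1.39, q = 0.0116). The second lies 0.826 kb from Hist1h3b and had 4, 6 and 8 events from Hist1h2ad_Hist1h2bf (18.9-fold ± 1.34, q = 0.00817). The third lies nearest to Hist1h4h among the captured promoters and had 13 events in each library from Abt1, an activator of basal transcription (11.5-fold ± 3.66, q = 0.0244).

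The 2 histone clusters of chromosome 13 contacted each other across the 1.42 Mb between them. This comparison, of contacts over 1 Mb between crowded regions of 1 chromosome with at least 3 members, was added once the data were known. The expected count here is the number of events that a promoter has beyond 1 Mb, spread over distance as for all promoters of its chromosome. Promoters with more events weighed more in that spread. From the small to the large cluster, 12 histone promoters had 2069, 3576 and 3411 events, 8.74, 8.25 and 8.30 times expected (8.51 ± 0.331). In the opposite direction, 20 histone promoters had 1347, 2263 and 2151 events, 8.19, 7.34 and 7.38 times expected (7.77 ± 0.584). The value from the small cluster was the higher in each library, a difference that was not tested. Without the fragments that share a 30-base word with the other cluster the values were 7.94 ± 0.383 and 6.66 ± 0.534, and without those within 1 kb of a histone gene 7.43 ± 0.257 and 6.55 ± 0.537. The non-histone promoters of the same clusters were lower, at 3.62 ± 0.133 for Zfp184 and 4.49 ± 0.542 for Zfp322a, Abt1 and Btn1a1 together. Over all members of the 2 clusters the value was 7.86 ± 0.373, against 2.32 ± 0.0944 in the stretches beside them. The stretch beside the small cluster took in captured histone promoters that are not members, among them Hist1h4i, so that these surroundings are not free of histone genes.

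Along the contacted clusters the signal rose and fell. From the small cluster it was 10.2 at 137.5 kb before the centre of the large cluster, the bin of Abt1, and 9.80 at the next bin, that of Btn1a1, fell to 3.16 ± 0.098 at 87.5 kb before it, and rose to 12.3 ± 1.15 just beyond the centre at 5 captured histone promoters. The bin at 37.5 kb, without a captured promoter, had 10.7 ± 0.671, above the 8.24 ± 1.03 at Hist1h4h and Hist1h2af_Hist1h3g. The highest bin, 187.5 kb beyond the centre, had 28.8, 19.0 and 21.4 times the expected events in the 3 libraries (24.5 ± 6.09) and held Hist1h3c, Hist1h2bb, Hist1h2ab, Hist1h3b, Hist1h4b, Hist1h4a and Hist1h3a. From the large cluster the signal was 14.0 ± 2.17 at Hist1h3i and Hist1h2bp_Hist1h2an and fell to 2.71 ± 0.0843 at 62.5 kb beyond the centre of the small one. It rose again to 15.4, 12.5 and 13.1 (14.1 ± 1.84) at 212.5 kb, outside the span of the members, where the captured histone promoters Hist1h2ah_Hist1h2bk, Hist1h4i and Hist1h2bj_Hist1h2ag lie. With fewer than 12 neighbours these are not members, and their bin was as high as those of the members.

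**Figure D4:**
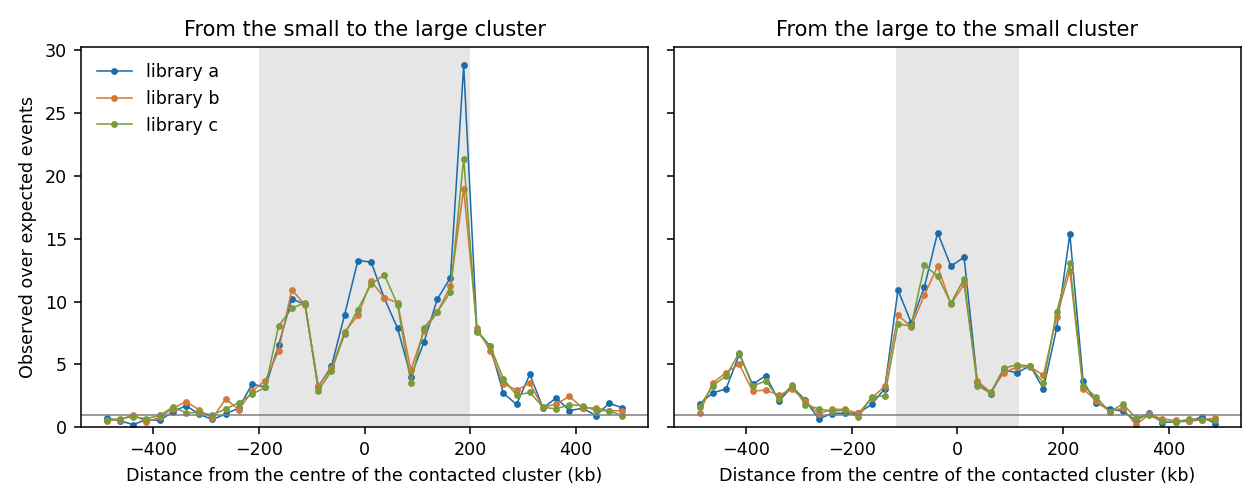
Observed over expected events over 1 Mb, in bins of 25 kb, from the histone promoters of the small cluster along the large one (left) and the reverse (right). The x axis is the distance from the centre of the contacted cluster in kb, lines are the 3 libraries, the shaded band is the span of its members and the horizontal line marks 1. Contacts peak inside the bands, at 24.5 on the left at 187.5 kb, and at a further group of histone promoters outside the band at 212.5 kb on the right (14.1).

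Other crowded regions also met each other over long distances. All 53 pairs of regions over 1 Mb apart on 1 chromosome had more events than expected in each library, at 3.62, 3.32 and 3.29 over all pairs (3.46 ± 0.226). The stretches beside the regions were raised as well, at 1.93 ± 0.0855, so that the crowded regions stood 1.80 ± 0.0375 times above their surroundings when all events were summed. The median over the 53 pairs was lower, at 1.40 ± 0.0123. In 40 of the 53 pairs this fold was above 1 in all 3 libraries and in 1 pair below 1. The 2 histone clusters had 3.39 ± 0.299, against surroundings that took in histone promoters that are not members. The pair between the Ptbp1 and Rbms2 regions of chromosome 10, 47.3 Mb apart, had 1320, 2176 and 2012 events, 10.0, 8.96 and 8.38 times expected (9.34 ± 0.949), and 3.45 ± 0.341 beside them. On chromosome 9 the Cbl and Rnf123 regions, 63.8 Mb apart, had 9.85 ± 0.874 and 5.01 ± 0.229 beside them, from 299 events. Read from the Cbl region the value was 7.596 and from the Rnf123 region 18.9, the widest gap between directions among the 53 pairs. The directions differed by a median of 1.22-fold, and by over 1.5-fold in 11 pairs. The Fdx1l region of chromosome 9 had 9.63 ± 0.645 with the Rnf123 region, and 8.93 ± 2.40 beside them. With the Cbl region it had 6.13 ± 0.970, and 4.93 ± 1.32 beside them. A deeply captured stretch of chromosome 9 was kept in the expected counts of that chromosome, and its part in these values was not tested. The lowest pair was that of the Mtx1 and Pip5k1a regions of chromosome 3, at 1.53 ± 0.157, which lay below the stretches beside it (1.71 ± 0.0567) in all 3 libraries. The regions differ in G+C content and gene number from the rest of their chromosomes, and the part of these in the contacts was not tested.

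**Figure D5:**
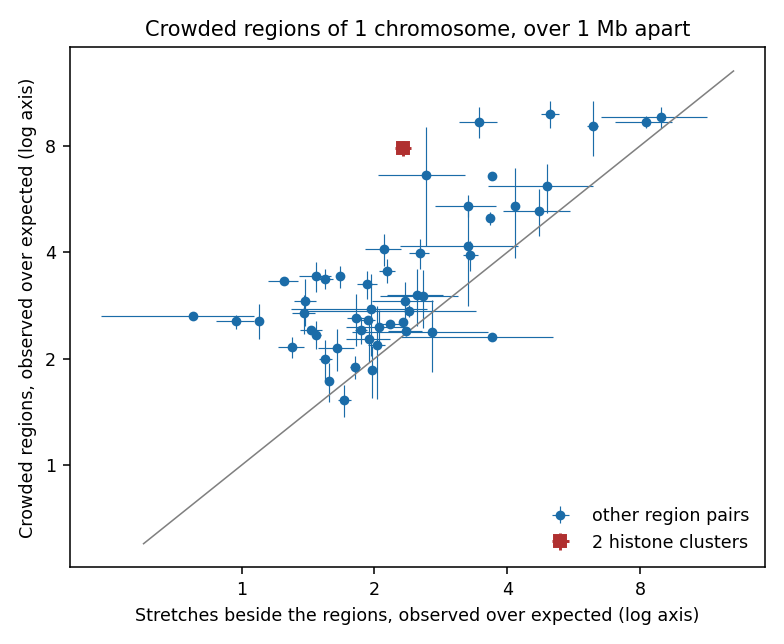
Observed over expected events between pairs of crowded regions over 1 Mb apart on 1 chromosome (y axis) against the same in the stretches beside them (x axis), both on log axes. Points are 53 region pairs with mean ± SD (n = 2), the square is the pair of histone clusters and the line marks equal values. Most pairs lie above the line, the histone clusters at 7.86 against 2.32.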

How the data were processed

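Signal values and the list of captured fragments were as deposited. Per the labels, libraries were digested with DpnII and the submitters' processing notes name Trim Galore, Bowtie and mm9, with no versions. The deposited signal is the number of reporters per 100000 cis reporters of a viewpoint, with targeted fragments left out by the authors. Counts were worked back from it (100% whole within 0.01 in each library). Errors cover the spread between libraries only. Gene groups were taken by symbol. The members and the gene lists were chosen with earlier results of these data known. Expected counts came from 50 distance bins between 2.5 kb and 1 Mb over all viewpoints with at least 1000 events. Fragments within 5 places of one that shares a 30-base word with the viewpoint were left out. The test was a negative binomial upper tail with the dispersion of each bin by moments, Benjamini-Hochberg adjusted over all pairs. It was tried on counts simulated from the same model. Changes were placed there only at pairs with higher expected counts than most called fragments of members had, so that the simulation cannot judge those calls. Genes named were the first, last and most crowded members of the 6 largest regions, the highest calls, the highest and lowest shares, and the members of listed groups, with others named after their values were seen. Gene positions were from GENCODE on the same build. Promoter words were searched in RefSeq sequences of another build, by symbol. Alternatives changed the neighbour minimum, the event minimum, the flank, the dispersion, the expected count and the libraries used. Some promoters are not reported here by name and are left out of the plotted pairs. Python 3.11.15, NumPy 2.4.6, pandas 2.3.3, SciPy 1.17.1, Numba 0.67.0 and Matplotlib 3.10.9 were used.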

Additional observations from a re-analysis of the deposited data

How the results depend on the processing

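The number of members was 804 with at least 10 neighbours, 218 with at least 15 and 296 with at least 5000 events. The difference in the share within 250 kb kept its direction under every alternative run, at 12.3 points with at least 10 neighbours and 15.5 with at least 15, and between 12.5 and 13.2 when each library was left out. Counts of calls depended on the test. Called fragments of members numbered 94 when the highest 0.1% of counts was left out of the dispersion, 11081 with Poisson counts, 20 with shared sequence kept, 130 when fragment length entered the expected count, 69 without expected counts under 1, and 19 to 26 with a library left out. Called promoter pairs numbered 3 at 1 place, 16 at 1 to 3 places, 15 with the trimmed dispersion, 1015 with Poisson counts, 13 with shared sequence kept, and 0 to 4 with a library left out. The share called was higher for members than over all pairs in the test reported but lower with Poisson counts, for fragments (0.514% against 0.628%) and for promoter pairs (6.6% against 9.83%), and for fragments without library a (0.00121% against 0.00138%) or c (0.000881% against 0.00102%). With expected counts rescaled to the total of each viewpoint, an alternative added after seeing the data, 3 pairs and 35 fragments were called. The flank over its surroundings was 0.746 at 1 place, 0.9995 at 1 to 3 places, 0.884 and 0.983 against surroundings 3 to 10 and 11 to 20 places away, 0.978 with shared sequence kept, 0.903 without histones, 0.949 with at least 15 neighbours, and 0.931 to 0.936 with a library left out. The ratio inside over outside was 1.168 with fragment length, 1.159 as a median over viewpoints, 1.125 with regions extended by 50 kb, 1.122 without histones (added after seeing the data) and 1.163 to 1.165 with a library left out. Contacts of histone members between their 2 clusters, 8.20 over both directions, were 7.03 without fragments near histone genes, 7.43 without shared words and 7.90 to 8.22 with a library left out, all added after seeing the data, and contacts within each cluster moved from 2.18 to 2.19 without copied fragments. The cause of these changes was not tested. Samples could not be paired between groups because there was 1 group of samples and the columns carried no replicate numbers. Members and other promoters were compared within each library. Among pairs of members and single fragments most expected counts were under 1, whereas 11203 of the 15388 pairs with other promoters expected 1 or more.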

Other observations

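Outside the histone clusters, some promoters of crowded regions received more contacts from the other members of their region than the 1.11 ± 0.0228 found over all pairs within regions. These were chosen after their values were seen. Dus1l, a tRNA-modifying enzyme gene at the end of the Actg1 region of chromosome 11, had 48, 75 and 46 events from 14 viewpoints, 2.93, 3.07 and 1.90 times expected (2.71 ± 0.312), and all 14 were above 1. Irf9, the DNA-binding subunit of the interferon-activated complex, received 86, 100 and 112 events in the Dhrs4 region of chromosome 14 (2.36 ± 0.279), with 12 of 12 viewpoints above 1. Snhg1_Slc3a2, the host gene of small nucleolar RNAs beside Slc3a2, was at 2.26 ± 0.085 with 20 of 21 viewpoints above 1. Polr2a, the largest subunit of RNA polymerase II, was at 1.96 ± 0.0639 with 12 of 13 above 1. At the low end, Pip5k1a of chromosome 3 was at 0.266 ± 0.0584 with 0 of 4 viewpoints above 1, and Pcnx3 of the Sf3b2 region at 0.384 ± 0.102 with 2 of 31.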
